A study of Danio rerio with 4 samples.

Results

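The neural crest specifier genes examined here are sox10, foxd3, tfap2a, crestin, snai1b, snai2, sox9a, sox9b, twist1a and twist1b. These 10 genes were picked by name, but with earlier results of these data known. Of these, 9 had a row among the 26812 genes of the expression table. The forkhead gene foxd3 was not analysed here. RNA of whole zebrafish embryos was sequenced in 4 libraries, 1 for each of 4 groups: KDM5A-KO at 48 hours post fertilization (hpf), WT at 48 hpf, KDM5A-KO at 24 hpf and WT at 24 hpf. KDM5A is a demethylase of lysine 4 of histone H3, and the comparison asked how embryos without it differ in gene expression. The labels write the genotype Kdm5a-KO and describe a CRISPR/Cas9 knockout, with KO and WT fish mated separately, but the sample titles abbreviate the same groups as mo. The study's methods instead describe an sgRNA injected into the yolk with a Cas9 plasmid, so whether the embryos were mutant offspring or injected mosaics is not settled by these sources. The methods describe pooled embryos for each group at 24 hpf, and the pool at 48 hpf is not given in the sources used here.

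Column heads of the table join a letter to a digit. The letter K was taken to mean KDM5A-KO and C to mean WT, with 1 for 24 hpf and 2 for 48 hpf. This reading is an inference that neither the table nor the labels state. The digits were read beside genes of melanin pigment, which embryos of this species make in growing amounts over these stages. The melanosome gene pmela had 86.1 FPKM (fragments per kilobase of transcript, relative to the mapped fragments in total) in the KDM5A-KO-labelled library and 92.7 FPKM in WT at 48 hpf, against 22.7 FPKM in the KDM5A-KO-labelled library and 20.4 FPKM in WT at 24 hpf. The letters had no such check. The targeted gene, KDM5A, had 16.3 FPKM in the KDM5A-KO-labelled library and 18.1 FPKM in WT at 48 hpf, and 20.3 FPKM in the KDM5A-KO-labelled library and 13.8 FPKM in WT at 24 hpf. It was therefore not lower in the 24 hpf KDM5A-KO-labelled library, so its RNA gives no backing to the label at that time. An RNA level also does not show whether a gene was edited. The files do not show the edit. Every direction between the genotypes below rests on these labels.

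The neural crest is a population of cells that forms at the edge of the neural plate, leaves the dorsal neural tube and migrates through the embryo. In zebrafish it gives rise to pigment cells, peripheral neurons and glia, and much of the skeleton and connective tissue of the head. Transcription factors called specifiers define the crest at the neural plate border, prepare its cells to lose their epithelial contacts, and keep chosen lineages going afterwards. Most of them have a further role outside the crest, so their level in a whole embryo is a sum over tissues. Fewer cells of a type and less RNA per cell cannot be told apart in such bulk samples.

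The total of each library, read from the steps of its FPKM values, was between 7441797 and 15922314 reads, with the lowest total in WT at 24 hpf. Genes near the ribosomal RNA locus took 12.1% of that library and between 0.29% and 0.432% of the others. This share lowers every other value of WT at 24 hpf, and the median log2 ratio of all genes with at least 1 FPKM in either 24 hpf library was 0.22 (labelled KDM5A-KO over WT). Rescaling by the median of ratios moved the log2 ratios at 24 hpf by -0.27, and those at 48 hpf by only -0.01. Leaving the ribosomal genes out of the totals moved them by -0.18 at 24 hpf and -0.002 at 48 hpf. Each group had 1 library, so differences have no replicate check and no p-value is given. The 95% intervals below are exact (Clopper-Pearson) intervals from whole reads recovered from the FPKM values. They cover counting error only, and leave out differences between pools of embryos and between library preparations. A gene was called past 2-fold on the scale of log2((FPKM + 1)/(FPKM + 1)), which understates the change of low genes. Genes below 1 FPKM in both libraries cannot be called on it. They still count in the shares of all genes below, which lowers those shares beside lists of expressed genes.

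The first specifier by role is tfap2a on chromosome 24 (ENSDARG00000059279), which encodes an AP-2 factor of the neural plate border, early crest, epidermis and parts of the nervous system. It had 42.4 FPKM in the KDM5A-KO-labelled library and 93.9 FPKM in WT at 48 hpf. At 24 hpf it had 34.6 FPKM in the KDM5A-KO-labelled library and 33.7 FPKM in WT. WT at 48 hpf thus stood apart from the other libraries, which lay between 33.7 and 42.4 FPKM, and there tfap2a ranked above 97.8% of all genes.

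Members of the twist and snail groups are known for turning epithelial cells into migrating ones, and the twist1 genes also mark mesenchyme of the head and sclerotome. twist1a, on chromosome 19 (ENSDARG00000030402), had 30.6 FPKM in the KDM5A-KO-labelled library and 32.3 FPKM in WT at 48 hpf, and 35.0 FPKM in the KDM5A-KO-labelled library and 25.3 FPKM in WT at 24 hpf. Its duplicate twist1b, on chromosome 16 (ENSDARG00000076010), had 17.8 FPKM in the KDM5A-KO-labelled library and 14.3 FPKM in WT at 48 hpf, and 12.3 FPKM in the KDM5A-KO-labelled library and 9.62 FPKM in WT at 24 hpf. The lowest values of twist1a and twist1b were both those of WT at 24 hpf, the library with the high ribosomal share. The zinc finger gene snai1b, on chromosome 23 (ENSDARG00000046019), had 7.75 FPKM in the KDM5A-KO-labelled library and 3.53 FPKM in WT at 48 hpf, and 20.6 FPKM in the KDM5A-KO-labelled library and 11.7 FPKM in WT at 24 hpf. snai2, the slug gene, on chromosome 24 (ENSDARG00000040046), had 19.9 FPKM in the KDM5A-KO-labelled library and 16.6 FPKM in WT at 48 hpf, and 25.9 FPKM in the KDM5A-KO-labelled library and 21.5 FPKM in WT at 24 hpf. In FPKM as deposited, both snail genes were higher at 24 hpf than at 48 hpf in each genotype, and higher in the KDM5A-KO-labelled library at each time. After rescaling, the log2 FPKM ratio of snai2 between the genotypes at 24 hpf was 0.001 (interval -0.22 to 0.23).

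The SoxE genes sox9a, sox9b and sox10 encode HMG box factors that maintain crest cells and then split between lineages. sox9a, on chromosome 12 (ENSDARG00000003293) and needed in zebrafish for head cartilage, had 41.0 FPKM in the KDM5A-KO-labelled library and 42.5 FPKM in WT at 48 hpf, and 19.8 FPKM in the KDM5A-KO-labelled library and 24.2 FPKM in WT at 24 hpf. sox9b, its duplicate on chromosome 3 (ENSDARG00000043923), had 24.2 FPKM in the KDM5A-KO-labelled library and 24.6 FPKM in WT at 48 hpf, and 15 FPKM in the KDM5A-KO-labelled library and 15.3 FPKM in WT at 24 hpf. Both sox9 genes were higher at 48 hpf in each genotype, and sox9a had its lowest value in the KDM5A-KO-labelled library at 24 hpf. A gene on the opposite strand overlaps sox9b but carried 1 read in WT at 24 hpf and 0 in the other libraries. sox10, also on chromosome 3 (ENSDARG00000077467) and needed in zebrafish for pigment cells, glia and enteric neurons, had 12.1 FPKM in the KDM5A-KO-labelled library and 13.8 FPKM in WT at 48 hpf, and 17.9 FPKM in the KDM5A-KO-labelled library and 13.4 FPKM in WT at 24 hpf. The highest sox10 value was that of the KDM5A-KO-labelled library at 24 hpf, and the lowest was that of the same genotype label at 48 hpf. sox10 is also used by the otic vesicle and the oligodendrocyte lineage.

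crestin, on chromosome 4 (ENSDARG00000105570), is a zebrafish gene whose RNA marks premigratory and migrating crest and is used to follow those cells. It belongs to a repeated, retroelement-like family, so reads may be shared with other copies. It had 0.283 FPKM in the KDM5A-KO-labelled library and 0.406 FPKM in WT at 48 hpf, on 20 and 28 reads. At 24 hpf it had 2.94 FPKM in the KDM5A-KO-labelled library and 2.54 FPKM in WT, on 192 and 84 reads. Its level was the lowest of the 9 genes in each library. The FPKM levels of the specifiers and their counting intervals are plotted by library.

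**Figure D1:**
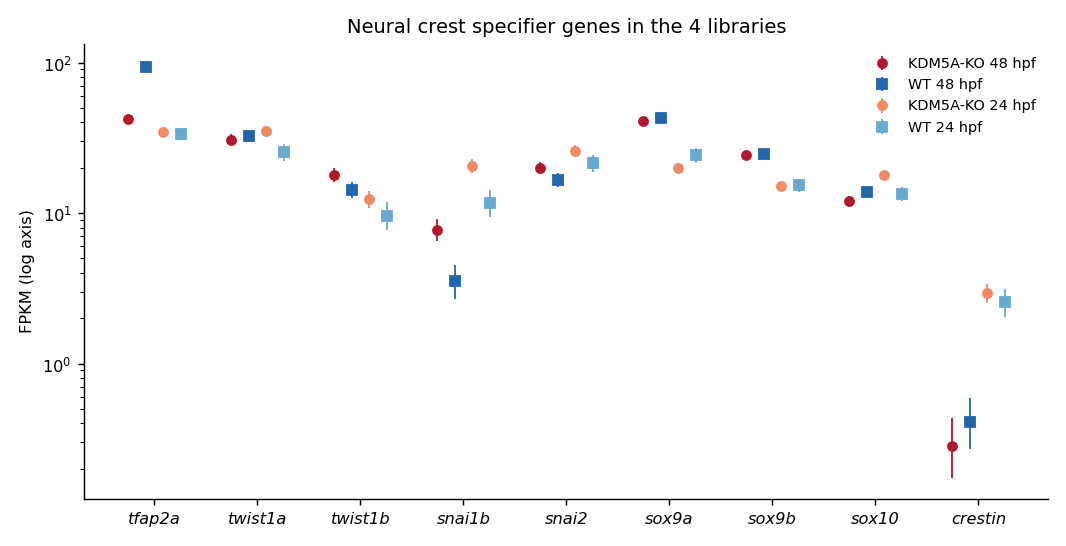
Level of the 9 neural crest specifier genes in FPKM (log axis) in the 4 libraries, with 1 point for each library and 95% counting intervals as bars. WT at 48 hpf is the only library in which tfap2a stands at 93.9 FPKM, snai1b has its lowest point there at 3.53 FPKM, and crestin lies below 0.5 FPKM in both 48 hpf libraries.

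In FPKM, which is scaled per length, tfap2a was the highest of the 9 genes in both 48 hpf libraries and in WT at 24 hpf. In the KDM5A-KO-labelled library at 24 hpf, twist1a stood at the top, but its interval overlapped that of tfap2a. The order of all 9 genes was the same in both 48 hpf libraries: tfap2a, sox9a, twist1a, sox9b, snai2, twist1b, sox10, snai1b and crestin. Of the 8 pairs of neighbours in that order, 2 overlapped in their counting intervals in the KDM5A-KO-labelled library, tfap2a with sox9a and snai2 with twist1b. In WT at 48 hpf, 2 pairs also overlapped, snai2 with twist1b and twist1b with sox10, and tfap2a stood clear of sox9a. At 24 hpf the intervals of 4 of 8 neighbouring pairs overlapped in the KDM5A-KO-labelled library and of 5 of 8 in WT, so the order there is less resolved. The 9 genes summed to 196.2 FPKM in the KDM5A-KO-labelled library and 241.9 FPKM in WT at 48 hpf, of which tfap2a gave 21.6% in the KDM5A-KO-labelled library and 38.8% in WT. At 24 hpf the sum was 184.2 FPKM in the KDM5A-KO-labelled library and 157.2 FPKM in WT, with tfap2a at 18.8% in the KDM5A-KO-labelled library and 21.4% in WT.

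At 48 hpf, 1 of the 9 specifiers was past 2-fold between the genotypes, and that was tfap2a, which was lower in the KDM5A-KO-labelled library. Its FPKM ratio to WT was 0.452 (interval 0.428 to 0.477), so that WT was 2.21-fold higher. Over all genes at 48 hpf, 3.49% were lower and 2.56% higher by at least 2-fold. In the other direction, snai1b was the highest of the members, with an FPKM ratio of 2.19 (interval 1.61 to 3.03) on 135 reads in the KDM5A-KO-labelled library and 60 reads in WT. On the log2 scale with 1 FPKM added its ratio was 0.95, just short of the 2-fold threshold. The remaining 7 genes lay between -0.18 for sox10 and 0.30 for twist1b on that scale.

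The smaller differences at 48 hpf were resolved to different degrees by their depth. The FPKM ratios of twist1b and snai2 were 1.25 (interval 1.06 to 1.47) and 1.2 (interval 1.05 to 1.38), both higher in the KDM5A-KO-labelled library. The FPKM ratio of sox10 was 0.875 (interval 0.784 to 0.978), lower in the KDM5A-KO-labelled library. For sox9a, sox9b and twist1a the ratios were 0.964 (interval 0.888 to 1.04), 0.986 (interval 0.914 to 1.06) and 0.95 (interval 0.844 to 1.07), and no difference was detectable at this depth. The ratio of crestin, 0.697, had an interval of 0.372 to 1.28 and says little on so few reads. In all, 3 genes had an interval above equality and 2 below it, where 20.2% and 25.2% of all genes did, many of them on far fewer reads than the specifiers. Over the 9 genes the median log2 ratio was -0.05, and that of all genes with at least 1 FPKM in either library was also -0.05.

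At 24 hpf, 0 of the 9 specifiers was past 2-fold in either direction, where 2.72% of all genes were higher and 1.32% lower by at least 2-fold. The gene with the highest ratio was again snai1b, with an FPKM ratio of 1.77 (interval 1.40 to 2.24) on 332 reads in the KDM5A-KO-labelled library and 95 reads in WT. twist1a, sox10 and snai2 followed with ratios of 1.39 (interval 1.18 to 1.63), 1.34 (interval 1.18 to 1.53) and 1.21 (interval 1.04 to 1.41). sox9a was lower in the KDM5A-KO-labelled library, at a ratio of 0.819 (interval 0.712 to 0.944). The intervals of tfap2a, crestin, sox9b and twist1b included equality, so that no difference in them was detectable at this depth, and the tfap2a ratio was 1.03 (interval 0.941 to 1.12).

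These 24 hpf ratios stand beside a shift over all genes. Over the 9 genes the median log2 ratio was 0.26, against 0.22 over all genes with at least 1 FPKM, and 4 members had intervals above equality and 1 below it, where 28.5% and 7.27% of all genes did. After median-of-ratios rescaling only snai1b kept an interval above equality, with 0.55 (interval 0.22 to 0.90) as its log2 FPKM ratio. The log2 FPKM ratios of sox9a, sox9b and tfap2a were then -0.56, -0.30 and -0.23, with intervals below 0. Those of sox10, twist1a and snai2 were 0.15, 0.20 and 0.001, with intervals that included 0. The directions of tfap2a and crestin at 24 hpf flipped with this rescaling. With the ribosomal genes left out of the totals, tfap2a flipped as well, to -0.14, while crestin did not. On those totals 3 members had intervals above equality and 3 below it. The 3 above were snai1b, twist1a and sox10, at log2 FPKM ratios of 0.64, 0.29 and 0.24. The 3 below were sox9a, sox9b and tfap2a. The sox10 and twist1a results at 24 hpf thus depend on which correction is used. The plot of ratios between the genotypes shows both scales, with the point of equality after rescaling as a dashed line.

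**Figure D2:**
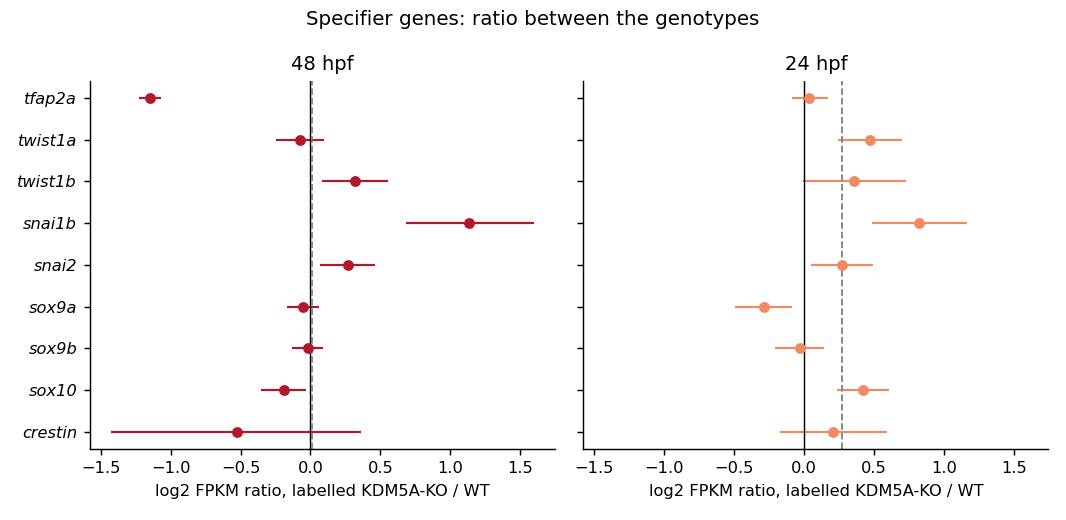
Log2 FPKM ratio of the KDM5A-KO-labelled library over WT for the 9 specifier genes at 48 hpf and at 24 hpf, with 95% counting intervals as bars, a solid line at equal FPKM and a dashed line at equality after median-of-ratios rescaling. At 48 hpf tfap2a lies far to the left of both lines and snai1b to the right, and at 24 hpf only snai1b lies wholly to the right of both.

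Between 24 and 48 hpf the specifiers parted into genes that were higher later and genes that were lower later. In the KDM5A-KO-labelled libraries, sox9a was past 2-fold higher at 48 hpf, with an FPKM ratio of 48 to 24 hpf of 2.07 (interval 1.86 to 2.3), where 6.34% of all genes were. snai1b and crestin were past 2-fold lower, at ratios of 0.376 (interval 0.305 to 0.461) and 0.0963 (interval 0.0576 to 0.153), where 3.54% of all genes were. In WT the gene past 2-fold higher at 48 hpf was tfap2a, at a ratio of 2.79 (interval 2.58 to 3.02), where 12.4% of all genes were. Again snai1b and crestin were past 2-fold lower in WT, at ratios of 0.303 (interval 0.215 to 0.423) and 0.16 (interval 0.1 to 0.248), where 4.45% of all genes were. In both genotypes, then, the 2 genes past 2-fold lower at 48 hpf were crestin, which marks early crest, and snai1b.

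The same comparison for tfap2a in the KDM5A-KO-labelled libraries gave a ratio of only 1.23 (interval 1.15 to 1.31), and for sox9a in WT it gave 1.76 (interval 1.55 to 1.99). sox9b was higher at 48 hpf in both, at 1.61 (interval 1.48 to 1.77) in the KDM5A-KO-labelled libraries and 1.60 (interval 1.43 to 1.79) in WT. twist1b was likewise higher later in both, at 1.45 (interval 1.22 to 1.72) in the KDM5A-KO-labelled libraries and 1.49 (interval 1.16 to 1.92) in WT. snai2 was lower later in both, at 0.769 (interval 0.68 to 0.87) in the KDM5A-KO-labelled libraries and 0.772 (interval 0.655 to 0.911) in WT. The ratios of sox9b, twist1b and snai2 thus lay within each other's counting intervals, which does not show that they were equal.

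For sox10 and twist1a the ratios over time lay on opposite sides of equality in the genotypes, though in WT the sox10 interval included equality. sox10 had a ratio of 48 to 24 hpf of 0.673 (interval 0.606 to 0.748) in the KDM5A-KO-labelled libraries and 1.03 (interval 0.9 to 1.18) in WT. twist1a had a ratio of 0.875 (interval 0.778 to 0.984) in the KDM5A-KO-labelled libraries and 1.28 (interval 1.09 to 1.5) in WT. After rescaling, the log2 FPKM ratio of twist1a in the KDM5A-KO-labelled libraries was -0.04 with an interval that included 0, and that of sox10 in WT turned to -0.06. Over the 9 genes, 4 had intervals above equality and 5 below it in the KDM5A-KO-labelled libraries, where 22.3% and 29.3% of all genes did. In WT, 5 had intervals above and 3 below, where 31% and 18.5% of all genes did. The median log2 ratio of the members was -0.19 in the KDM5A-KO-labelled libraries and 0.34 in WT, beside -0.11 and 0.16 over all genes with at least 1 FPKM. The plot of ratios over time sets the genotypes side by side.

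**Figure D3:**
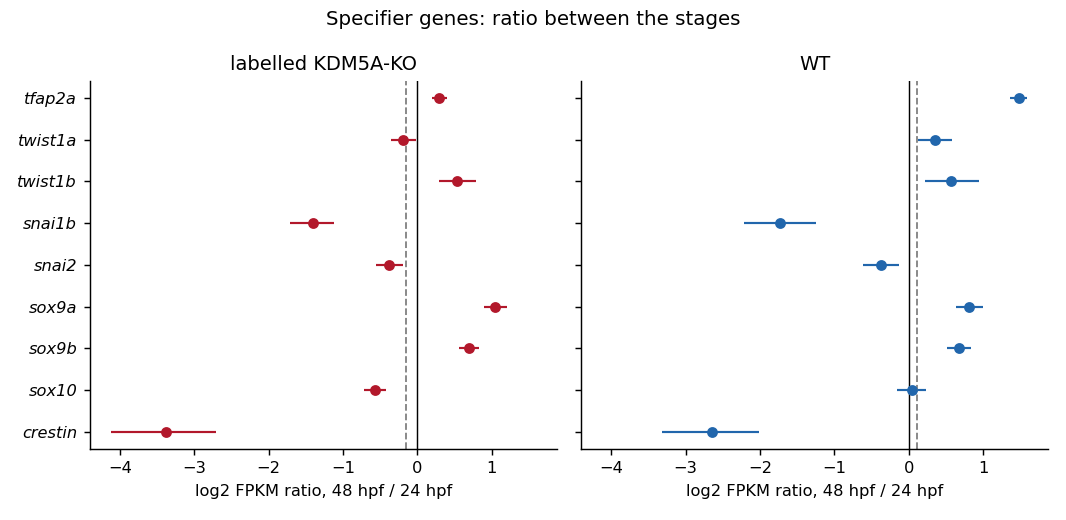
Log2 FPKM ratio of 48 hpf over 24 hpf for the 9 specifier genes in the KDM5A-KO-labelled libraries and in WT, with 95% counting intervals as bars, a solid line at equal FPKM and a dashed line at equality after median-of-ratios rescaling. crestin and snai1b lie far to the left in both, sox9a and sox9b to the right in both, and tfap2a is far to the right in WT only.

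The change of the genotype ratio between the stages was greatest for tfap2a. On the log2 FPKM scale its ratio between genotypes was lower at 48 hpf than at 24 hpf by 1.19 (difference -1.19, 95% counting interval -1.33 to -1.04). The same difference was -0.61 (interval -0.86 to -0.37) for sox10 and -0.55 (interval -0.83 to -0.26) for twist1a, and 0.24 for sox9a (interval 0.00 to 0.47, with its lower bound just above 0). These 4 comparisons each use all 4 libraries, and the ribosomal share of WT at 24 hpf enters each of them. With rescaled values the differences were -0.93 for tfap2a, -0.35 for sox10, -0.29 for twist1a and 0.49 for sox9a. For snai1b, snai2, sox9b, twist1b and crestin the counting interval of the difference included 0 on the deposited scale. With rescaled values their differences were 0.57, 0.25, 0.27, 0.22 and -0.47. Rescaling shifts every difference by the same amount, so which genes differ depends on the scale. No interval was computed for the rescaled differences, and which of them exclude 0 is not given here.

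Duplicated and related genes were compared within each library, where the library total cancels. The FPKM ratio of twist1a to twist1b was 1.72 (interval 1.5 to 1.97) in the KDM5A-KO-labelled library and 2.25 (interval 1.95 to 2.61) in WT at 48 hpf. At 24 hpf it was 2.85 (interval 2.44 to 3.34) in the KDM5A-KO-labelled library and 2.63 (interval 2.04 to 3.41) in WT. twist1a was the higher copy in every library, with its smallest margin in the KDM5A-KO-labelled library at 48 hpf. The ratio of sox9a to sox9b was 1.69 (interval 1.56 to 1.83) in the KDM5A-KO-labelled library and 1.73 (interval 1.60 to 1.87) in WT at 48 hpf, and 1.32 (interval 1.18 to 1.48) in the KDM5A-KO-labelled library and 1.58 (interval 1.36 to 1.83) in WT at 24 hpf. sox9a was the higher copy throughout.

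Within the snail family the balance of the copies moved with stage and genotype label. The ratio of snai2 to snai1b was 2.57 (interval 2.12 to 3.14) in the KDM5A-KO-labelled library and 4.69 (interval 3.57 to 6.27) in WT at 48 hpf. At 24 hpf it was 1.26 (interval 1.10 to 1.44) in the KDM5A-KO-labelled library and 1.84 (interval 1.45 to 2.36) in WT. In each library snai2 was the higher gene, and its margin was smaller in the KDM5A-KO-labelled library at both stages. The ratio of snai1b to its duplicate snai1a was 0.689 (interval 0.561 to 0.841) in the KDM5A-KO-labelled library and 0.365 (interval 0.272 to 0.482) in WT at 48 hpf, and at 24 hpf it was 1.31 (interval 1.13 to 1.51) in the KDM5A-KO-labelled library and 1.37 (interval 1.04 to 1.80) in WT. snai1b was thus the higher copy at 24 hpf and the lower one at 48 hpf in both genotypes.

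The other snail genes, snai1a and snai3, were not resolved between the genotypes at 48 hpf. Their log2 FPKM intervals, -0.006 to 0.44 and -2.52 to 0.83, included 0. snai1a had 11.2 FPKM in the KDM5A-KO-labelled library and 9.69 FPKM in WT at 48 hpf, and 15.8 FPKM in the KDM5A-KO-labelled library and 8.53 FPKM in WT at 24 hpf. The rarest, snai3, had 0.27 FPKM in the KDM5A-KO-labelled library and 0.462 FPKM in WT at 48 hpf, on 6 and 10 reads. At 24 hpf it had 1.17 FPKM in the KDM5A-KO-labelled library and 1.16 FPKM in WT, on 24 and 12 reads. This family and the next were grouped after values of their members had been seen.

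The 5 tfap2 genes encode AP-2 factors that bind DNA as dimers and overlap in crest, epidermis, kidney and nervous system. At 48 hpf all 5 were past 2-fold lower in the KDM5A-KO-labelled library, where 3.49% of all genes were, at a median log2 ratio of -1.75. tfap2b had 4.80 FPKM in the KDM5A-KO-labelled library and 21.9 FPKM in WT, and tfap2e had 8.25 FPKM in the KDM5A-KO-labelled library and 30.9 FPKM in WT. tfap2d had 4.15 FPKM in the KDM5A-KO-labelled library and 16.3 FPKM in WT, and tfap2c had 10.7 FPKM in the KDM5A-KO-labelled library and 28.7 FPKM in WT. Of the family, tfap2a had the log2 ratio nearest to 0. The family summed to 70.3 FPKM in the KDM5A-KO-labelled library and 191.8 FPKM in WT at 48 hpf. At 24 hpf 0 of the 5 was past 2-fold, where 2.72% of all genes were higher and 1.32% lower. The family sum was then 65.9 FPKM in the KDM5A-KO-labelled library and 63.6 FPKM in WT. In the KDM5A-KO-labelled libraries 4 of the 5 were higher at 48 hpf than at 24 hpf, 2 of them past 2-fold, at a median log2 ratio of 0.84. In WT all 5 were higher at 48 hpf, 4 of them past 2-fold, at a median of 2.45. Over all genes, 6.34% and 12.4% were past 2-fold higher. Only tfap2c was lower at 48 hpf in the KDM5A-KO-labelled libraries, and it was past 2-fold. In WT it had 28.7 FPKM at 48 hpf against 22.5 FPKM at 24 hpf.

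**Figure D4:**
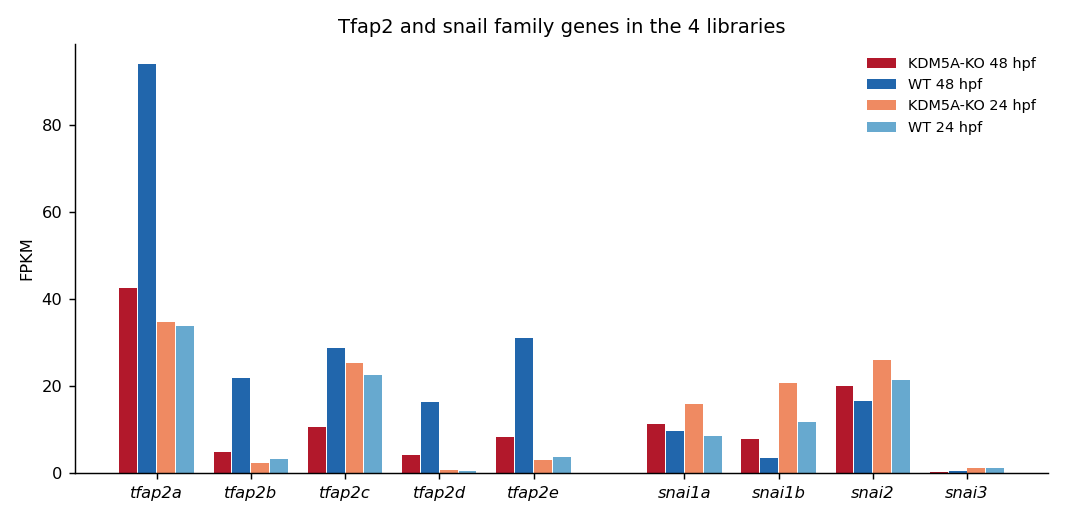
Level in FPKM of the 5 tfap2 and 4 snail genes, with 1 bar for each library and no error bars. Each tfap2 gene has its highest bar in WT at 48 hpf, where tfap2a reaches 93.9 FPKM, whereas snai1a, snai1b and snai2 have their highest bars in the KDM5A-KO-labelled library at 24 hpf.

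Some tfap2 genes, tfap2a among them, are also used by amacrine and horizontal cells, the interneurons of the retina, and genes of these cells were examined in a list made after the tfap2 values were known. Of its 8 genes, 3 were past 2-fold lower in the KDM5A-KO-labelled library at 48 hpf, where 3.49% of all genes were. The median log2 ratio was -0.62. barhl2, a homeobox gene of amacrine and other neurons, had 12.8 FPKM in the KDM5A-KO-labelled library and 39.0 FPKM in WT, and lhx1a, a LIM homeobox gene of horizontal cells, had 28.4 FPKM in the KDM5A-KO-labelled library and 75.4 FPKM in WT. The third was slc32a1, the vesicular GABA transporter, at 12.1 FPKM in the KDM5A-KO-labelled library and 25.6 FPKM in WT. The glycine transporter slc6a9 had 20.3 FPKM in the KDM5A-KO-labelled library and 18.6 FPKM in WT, the highest log2 ratio of the list. The 8 genes summed to 122.2 FPKM in the KDM5A-KO-labelled library and 217.7 FPKM in WT at 48 hpf, and to 42.1 FPKM in the KDM5A-KO-labelled library and 54.0 FPKM in WT at 24 hpf, and none was at 0. At 24 hpf the median of the list was -0.31, and -0.54 after rescaling. At 48 hpf 6 of the 8 were lower in the KDM5A-KO-labelled library and 2 were higher, beside a median of -0.05 over all genes with at least 1 FPKM. The log2 ratios of those not yet named were -0.92 for prdm13, -0.32 for ptf1a, -0.23 for foxn4 and 0.11 for onecut1. Whole embryos were sequenced, so the values of these 8 genes are sums over tissues and no measure of the retina alone. The part of retinal interneurons in the tfap2a difference was not tested.

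Other crest transcription factors were followed in a list of 12 genes, of which 11 were analysed. At 48 hpf 3 were past 2-fold lower in the KDM5A-KO-labelled library, where 3.49% of all genes were, and 0 past 2-fold higher. These 3 were tfap2b, tfap2c and tfap2e, already counted in the tfap2 family. The median log2 ratio was -0.27, which was the value of sox8a, on 1 read in the KDM5A-KO-labelled library and 9 in WT. The highest was mycn, a MYC gene of proliferating neural and crest progenitors, at 63.2 FPKM in the KDM5A-KO-labelled library and 32.7 FPKM in WT (log2 ratio 0.93). At 24 hpf 0 of the 11 was past 2-fold, where 2.72% of all genes were higher and 1.32% lower. The median of the 11 was then 0.17, or 0.00 after rescaling. The 0.00 was the value of sox8a, which had 0 reads in both 24 hpf libraries. Another MYC gene, myca, was the highest at 24 hpf, at 44.6 FPKM in the KDM5A-KO-labelled library and 24.9 FPKM in WT.

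The neural plate border genes act before the specifiers. Of 14 genes, 9 were higher in the KDM5A-KO-labelled library at 48 hpf and 9 at 24 hpf, with median log2 ratios of 0.25 and 0.36. Over all genes with at least 1 FPKM the medians were -0.05 and 0.22. Only zic2b at 48 hpf was past 2-fold, where 2.56% of all genes were past 2-fold higher. zic2b, a zinc finger gene of the dorsal neural tube, had 25.7 FPKM in the KDM5A-KO-labelled library and 11.4 FPKM in WT at 48 hpf. msx1b, a homeobox gene of the border, had 66.2 FPKM in the KDM5A-KO-labelled library and 35.0 FPKM in WT at 24 hpf. The lowest were pax7a at 48 hpf (3.58 FPKM in the KDM5A-KO-labelled library and 8.05 FPKM in WT) and pax3b at 24 hpf (1.45 FPKM in the KDM5A-KO-labelled library and 3.74 FPKM in WT), both paired box genes of border and crest. After rescaling, the median of the border genes was 0.23 at 48 hpf and 0.10 at 24 hpf.

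Genes of crest migration and adhesion had 0 of 10 past 2-fold at either time, which is near the shares of all genes. Those were 2.56% higher and 3.49% lower at 48 hpf, and 2.72% higher and 1.32% lower at 24 hpf. The list had median log2 ratios of -0.05 at 48 hpf and 0.37 at 24 hpf, the second of which was 0.14 after rescaling. The cadherin cdh6, which is present in premigratory crest, had 30.6 FPKM in the KDM5A-KO-labelled library and 19.1 FPKM in WT at 24 hpf (log2 ratio 0.65). The endothelin receptor ednrba was the lowest of the list at both times, with 2.15 FPKM in the KDM5A-KO-labelled library and 3.94 FPKM in WT at 48 hpf, and 1.32 FPKM in the KDM5A-KO-labelled library and 1.90 FPKM in WT at 24 hpf. The highest at 48 hpf, ednrab, had 1.06 FPKM in the KDM5A-KO-labelled library and 0.817 FPKM in WT.

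Among crest derivatives, pigment cell genes were lower in the KDM5A-KO-labelled library for 14 of 15 genes at 48 hpf and 12 of 15 at 24 hpf, at median log2 ratios of -0.35 and -0.14. After rescaling these medians were -0.36 and -0.38. Over all genes with at least 1 FPKM the medians were -0.05 and 0.22 as deposited. Past 2-fold were pnp4a and ltk at 48 hpf and gch2 at 24 hpf, all lower. Over all genes, 3.49% were past 2-fold lower at 48 hpf and 1.32% at 24 hpf. pnp4a, an enzyme of purine metabolism that marks iridophores, had 9.21 FPKM in the KDM5A-KO-labelled library and 21.9 FPKM in WT at 48 hpf. gch2, which makes pteridines in xanthophores, had 37.8 FPKM in the KDM5A-KO-labelled library and 81.0 FPKM in WT at 24 hpf. The highest were kita at 48 hpf (3.27 FPKM in the KDM5A-KO-labelled library and 2.79 FPKM in WT) and tfec at 24 hpf (5.50 FPKM in the KDM5A-KO-labelled library and 3.46 FPKM in WT). Of the 12 arch ectomesenchyme genes, which pattern the skeleton-forming crest of the head, 9 were lower at 48 hpf and 10 were higher at 24 hpf. These are the directions of the all-gene medians. At either time 0 was past 2-fold, near the lower shares above and the 2.56% and 2.72% of all genes past 2-fold higher. The arch medians were -0.29 at 48 hpf and 0.32 at 24 hpf, and 0.10 at 24 hpf after rescaling. In this list dlx4a was the lowest at 48 hpf, with 7.36 FPKM in the KDM5A-KO-labelled library and 13.2 FPKM in WT. hand2, a gene of the ventral arches and sympathetic neurons, was the highest at both times, with 10.7 FPKM in the KDM5A-KO-labelled library and 7.58 FPKM in WT at 48 hpf, and 15.6 FPKM in the KDM5A-KO-labelled library and 7.45 FPKM in WT at 24 hpf. The 11 peripheral neuron and glia genes had medians of -0.03 at 48 hpf and 0.11 at 24 hpf, or 0.00 at 24 hpf after rescaling, with 0 past 2-fold. Only 8 of the 11 had at least 1 FPKM in either library at each time. The -0.03 was the value of mbpa, on 0 reads in the KDM5A-KO-labelled library and 1 in WT. The 0.00 was also that of mbpa, with 0 reads in both 24 hpf libraries, so these medians say little. In this list mpz, a myelin protein gene, was the lowest at 24 hpf, with 0.525 FPKM in the KDM5A-KO-labelled library and 1.60 FPKM in WT, and phox2bb, a gene of autonomic neurons, was the lowest at 48 hpf, with 11.3 FPKM in the KDM5A-KO-labelled library and 15.8 FPKM in WT.

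Of 128 genes that the table annotates with a neural crest term, a wider list that holds 6 of the 9 specifiers, 8 were past 2-fold lower and 0 higher at 48 hpf, where 3.49% and 2.56% of all genes were. At 24 hpf 0 were past 2-fold lower and 1 higher, where 1.32% and 2.72% of all genes were. At 48 hpf their median log2 ratio was -0.08. At 24 hpf it was 0.11, which turned to -0.05 after rescaling. The plot of gene lists shows the spread of each list around its median and around the median of all genes.

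**Figure D5:**
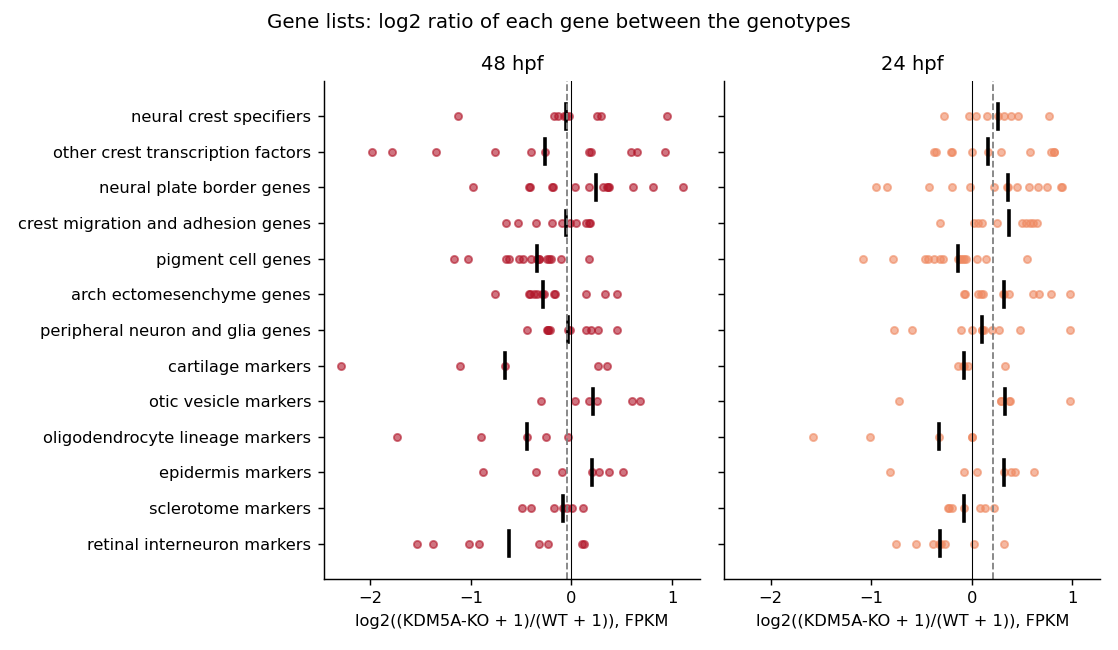
Log2((FPKM + 1)/(FPKM + 1)) of the KDM5A-KO-labelled library over WT at 48 hpf and at 24 hpf, with 1 point for each gene, a black bar at the median of each list and a dashed line at the median of all genes with at least 1 FPKM. Of the lists plotted, cartilage markers and retinal interneuron markers have the lowest medians at 48 hpf, at -0.66 and -0.62, and the specifiers have a median of -0.05.

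Several specifiers are also markers of other tissues, and the markers of those tissues were read in the same libraries. For the sox9 genes this is cartilage. Of 5 cartilage markers, 2 were past 2-fold lower in the KDM5A-KO-labelled library at 48 hpf, where 3.49% of all genes were. Their median log2 ratio, over the 5 markers, was -0.66. This was the value of acana, which had 0.794 FPKM in the KDM5A-KO-labelled library and 1.84 FPKM in WT. matn1, a cartilage matrix gene, had 0.382 FPKM in the KDM5A-KO-labelled library and 5.78 FPKM in WT, on 17 and 251 reads, and col9a1a had 11.4 FPKM in the KDM5A-KO-labelled library and 25.8 FPKM in WT. The abundant collagen col11a2 was higher, at 43.0 FPKM in the KDM5A-KO-labelled library and 33.5 FPKM in WT, and the list, which col2a1a dominates, summed to 419.9 FPKM in the KDM5A-KO-labelled library and 369.4 FPKM in WT. sox9a and sox9b themselves showed ratios near 1 at that stage. At 24 hpf 0 of the 5 cartilage markers was past 2-fold, where 2.72% of all genes were higher and 1.32% lower. Only 3 of the 5 had at least 1 FPKM in either 24 hpf library, so matn1 and acana could not be called. The median of the markers was then -0.08 (-0.24 after rescaling), and they summed to 342.6 FPKM in the KDM5A-KO-labelled library and 362.1 FPKM in WT.

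For sox10 the other tissues are the otic vesicle and the oligodendrocyte lineage. The 6 otic markers had medians of 0.22 at 48 hpf and 0.33 at 24 hpf, or 0.15 at 24 hpf after rescaling. Of them 0 was past 2-fold. Of all genes, 2.56% were past 2-fold higher and 3.49% lower at 48 hpf, and 2.72% and 1.32% at 24 hpf. The otic markers summed to 43.0 FPKM in the KDM5A-KO-labelled library and 36.8 FPKM in WT at 48 hpf. At 24 hpf they summed to 35.3 FPKM in the KDM5A-KO-labelled library and 29.2 FPKM in WT. Oligodendrocyte lineage markers went the other way, with medians of -0.45 at 48 hpf and -0.33 at 24 hpf, or -0.57 at 24 hpf after rescaling. olig1 was past 2-fold lower at 48 hpf, where 3.49% of all genes were, with 2 reads in the KDM5A-KO-labelled library and 60 reads in WT. olig2 and plp1a were past 2-fold lower at 24 hpf, where 1.32% of all genes were. plp1a, a myelin protein gene, then had 13.3 FPKM in the KDM5A-KO-labelled library and 41.8 FPKM in WT. The 5 markers summed to 47.3 FPKM in the KDM5A-KO-labelled library and 74.8 FPKM in WT at 48 hpf, and to 25.6 FPKM in the KDM5A-KO-labelled library and 63.1 FPKM in WT at 24 hpf. olig1 and mbpa were at 0 in both 24 hpf libraries, so these defining markers of later cells say nothing at that stage. Both still count in the 24 hpf median, and only 3 of the 5 markers had at least 1 FPKM then. Most of the 24 hpf sums was plp1a, which in WT had 41.8 FPKM at 24 hpf and 21.0 FPKM at 48 hpf. The 24 hpf values of the list are therefore no measure of that lineage. As deposited, sox10 was higher in the KDM5A-KO-labelled library at 24 hpf and lower at 48 hpf, and the part of these tissues in that was not tested. After rescaling, the 24 hpf log2 FPKM ratio of sox10 was 0.15, with an interval of -0.04 to 0.34. With totals without ribosomal genes it was 0.24, and its interval stayed above 0.

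For tfap2a the further tissue is epidermis. Of its 7 markers 0 was past 2-fold. Of all genes, 2.56% were past 2-fold higher and 3.49% lower at 48 hpf, and 2.72% and 1.32% at 24 hpf. The epidermis markers had medians of 0.21 at 48 hpf and 0.32 at 24 hpf (0.05 at 24 hpf after rescaling). They had sums of 7489 FPKM in the KDM5A-KO-labelled library and 7341 FPKM in WT at 48 hpf. At 24 hpf they summed to 6535 FPKM in the KDM5A-KO-labelled library and 4989 FPKM in WT. In this list krt5 was the lowest at 48 hpf, with 518.3 FPKM in the KDM5A-KO-labelled library and 956.5 FPKM in WT, while cyt1 was the highest, with 181.9 FPKM in the KDM5A-KO-labelled library and 127.5 FPKM in WT. The 48 hpf sum was mostly krt4, with 5529 FPKM in the KDM5A-KO-labelled library and 4788 FPKM in WT, and the part of the epidermis in the tfap2a difference was not tested. For the twist1 genes the further tissue is the sclerotome, whose 7 markers had medians of -0.08 at both times and 0 past 2-fold, with -0.09 at 48 hpf and -0.29 at 24 hpf after rescaling. Their sums were 63.0 FPKM in the KDM5A-KO-labelled library and 74.3 FPKM in WT at 48 hpf, and 44.4 FPKM in the KDM5A-KO-labelled library and 43.7 FPKM in WT at 24 hpf.

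The genes with the profile most like that of a specifier were taken by the distance between log2(FPKM + 1) profiles over the 4 libraries, each centred on its own mean, among 15133 other genes with a mean of at least 1 FPKM. For sox10 the nearest were arl1, CABZ01072810.1, ing3, tmem141 and papss1, at distances of 0.016 to 0.033, and 1196 genes lay within 0.25. A profile like that of sox10 was thus common in these libraries, and of the other specifiers the nearest to it were twist1a at 0.335 and snai2 at 0.338. For crestin the nearest were prtfdc1, col7a1l, EVPL, arhgef39 and gypc, at distances of 0.085 to 0.162, and only 12 genes lay within 0.25. prtfdc1, the nearest to crestin, had 4.01 FPKM in the KDM5A-KO-labelled library and 4.77 FPKM in WT at 48 hpf, and 14.1 FPKM in the KDM5A-KO-labelled library and 12.4 FPKM in WT at 24 hpf. No other specifier lay closer to crestin than snai1b, at 0.885. These distances rest on 4 libraries and are a description. They were taken on FPKM as deposited, so the shift over all genes at 24 hpf enters every profile and may add to the neighbours of sox10.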

How the data were processed

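RNA sequencing of zebrafish embryos was analysed for 4 libraries, 1 for each genotype and stage. The authors checked reads with FastQC 0.11.5, filtered them with NGSQC, aligned them with HISAT2 2.1.0 and quantified genes with StringTie 1.3.3b, and used DESeq 1.28.0 for differences. They deposited FPKM values, 1 for each gene and library, in 1 table. The methods name an NEBNext Ultra kit and the labels a SMARTER mRNA kit. The submitters' processing notes name only a mouse build, which cannot apply to these genes, so the zebrafish build is not given in the sources used here and no coordinates are printed.

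Whole reads were recovered from the deposited FPKM values: the steps of the values gave each library's total, and the smallest whole gene length that made all values of a gene whole (within 0.005 reads) gave its reads, for 100% of genes. Recovered reads summed to between 98.2% and 98.5% of the totals, which were 7441797 to 15922314. Since a multiple of these reads may also fit, intervals are wide rather than narrow. Log2 ratios used a pseudocount of 1 FPKM and were called at 2-fold among all 26812 genes. Between the genotypes, 18262 genes at 48 hpf and 17290 at 24 hpf had at least 1 FPKM in either library. Between the stages these were 18218 in the KDM5A-KO-labelled libraries and 18501 in WT. The remaining genes could not be called, so shares of all genes are lower than shares of expressed genes. With 1 library in each group no test across genes was made and no count model was run. The calls and the recovery were run on simulated reads with counting error only and with changes well past 2-fold. That run did not cover calls near 2-fold or differences between pools of embryos. Computation was in Python 3.11.15 (scipy 1.17.1, numpy 2.4.6, matplotlib 3.10.9, pandas 2.3.3).

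The members and gene lists were chosen with earlier results of these data known. Named genes were the 10 members, the targeted gene, the genes with the highest and lowest ratio of each list at each time among those with at least 1 FPKM, and the 5 profiles closest to sox10 and to crestin. Genes past 2-fold in a list, both family lists, the retinal list, the genes with a crest term and pmela were named or added after values were seen. The settings varied were a pseudocount of 0.1 FPKM, median-of-ratios rescaling over 14596 genes, totals without 232 genes near ribosomal RNA, a 3-fold threshold, a mean of at least 1 FPKM and protein-coding genes as the background. Promoter and protein sequences were not used here.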

Additional observations from a re-analysis of the deposited data

Results flagged for a closer look

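Members whose log2 ratio (1 FPKM added) of the KDM5A-KO-labelled library over WT had opposite signs at the 2 stages were looked at again. The ratio of tfap2a was -1.13 at 48 hpf and 0.04 at 24 hpf, a difference of -1.17. The ratio of sox10 was -0.18 at 48 hpf and 0.40 at 24 hpf, a difference of -0.57. For twist1a the ratio was -0.07 at 48 hpf and 0.46 at 24 hpf, a difference of -0.53. For crestin it was -0.13 at 48 hpf and 0.15 at 24 hpf, a difference of -0.28, on 20 to 192 reads in each library. For sox10 and twist1a the ratio of 48 to 24 hpf also had opposite signs in the KDM5A-KO-labelled libraries and in WT, which gives the same differences of -0.57 and -0.53. With 1 library in each group, none of these differences was tested against replicate spread. The positive signs of tfap2a and crestin at 24 hpf turned with median-of-ratios rescaling, and that of tfap2a also with totals without ribosomal genes, where crestin stayed positive. The WT ratio of sox10 over time turned to -0.06 with rescaling and -0.13 with totals without ribosomal genes. It then had the same sign as in the KDM5A-KO-labelled libraries. The signs of twist1a over time stayed opposite, but its rescaled ratio in the KDM5A-KO-labelled libraries was only -0.04.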

How the results depend on the processing

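With median-of-ratios rescaling the median log2 ratio of the 9 specifiers at 24 hpf was 0.001, against 0.26 as deposited. With a pseudocount of 0.1 FPKM, 1 specifier, snai1b, was past 2-fold higher at 48 hpf, against 0 with 1 FPKM. At a 3-fold threshold, with 1 FPKM added, 0 specifiers were lower at 48 hpf in the KDM5A-KO-labelled library. From 24 to 48 hpf 1 was lower and 0 higher in the KDM5A-KO-labelled libraries, and 0 were lower and 0 higher in WT. The 0 lower in WT rests on the added 1 FPKM. Without it, crestin was 6.26-fold lower there (interval 4.04 to 9.97) and snai1b 3.30-fold (interval 2.37 to 4.64). Of the other 188 values recomputed for single genes and backgrounds, 167 were labelled the same and 21 moved. Of those that moved, 14 did so with rescaling, 6 with totals without ribosomal genes and 1 with protein-coding genes as the background. For single genes the label rests on the spread allowed by counting, which the backgrounds do not have. The filter on mean FPKM leaves every single-gene value as it was, so 45 of the 167 could not have moved. No paired analysis was possible because there was 1 library for each group, and for the same reason no library could be left out. Depth limits crestin most, with 20 and 28 reads in the 48 hpf libraries.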
